A study of Mus musculus with 46 samples.

Results

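The neutrophil marker genes were S100a8, S100a9, Lcn2, Il1r2, Csf3r, Mmp8 and Mmp9, 7 of the 12393 genes that the platform annotation ties to a probe set of a single symbol. Every probe set annotated with 1 of these symbols and no other was taken. This gave 8 of the 22626 probe sets that are not controls, 1 for each gene and a second one for Mmp9. The first Mmp9 probe set is the brighter one in healthy hearts, and where a value of Mmp9 names no probe set it is from the first.

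The study measured RNA of the left ventricle of male mice aged 15 to 20 weeks on 46 Affymetrix MOE430A arrays. Hearts of MRL/MpJ mice, an inbred strain known for closing ear wounds (MRL below), were set against hearts of C57BL/6J mice, a common laboratory strain (C57 below). In either strain, hearts were taken 1 day or 5 days after the left coronary artery was tied off with a suture, or from healthy mice with no operation, which form day 0. Each heart was divided with a biopsy punch into an infarct piece, which includes the border of the infarct, and a noninfarct piece, the rest of the left ventricle. At day 0 the name infarct stands for the matching anterior-apical site of a healthy heart. No mutation, transgene or drug treatment sets the groups apart. Day 0 mice had no sham operation, so the infarct and the surgery cannot be told apart. Each of the 12 groups of strain, day and region had 4 arrays, except both C57 day 0 groups, which had 3. The labels call the samples biological replicates without tying infarct pieces to noninfarct pieces of one heart, and the p-values measure the spread between these samples.

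Values are log2 of the authors' GCRMA intensity, and no constant was added. Array medians lay between 18.6 and 22.3 intensity units, or 4.22 and 4.48 on the log2 scale, and a value below its array's median is called low here. The defining genes of heart muscle, 9 on the list, were above the median in every array, so all arrays carried heart muscle. This holds for every group and cannot check the labels of strain, day or region. At day 5, 2 libraries went against their strain label. Of 43 probe sets that separated the strains without overlap at days 0 and 1, the library labelled MRL infarct day 5 replicate 3 had 41 on the C57 side. The library labelled C57 noninfarct day 5 replicate 3 had 35 on the MRL side. The other day 5 arrays had 74.4% to 100% of these probe sets on the side of their label, and none of the marker genes is among the 43. On the first principal component, the axis of largest spread over all arrays, this C57 noninfarct library lay at 99.1 and this MRL infarct library at 11. The other C57 noninfarct arrays of day 5 ran from -30.2 to 35.3, and the other MRL infarct arrays of day 5 from 107.9 to 115.7. On this axis too, each library lay nearer to the other's group than to its own, and an exchange was not tested. Both libraries kept their labels, and the values at day 5 that their removal moves are also given without them.

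Neutrophils are short-lived white cells that leave the blood for injured tissue within hours, and they are among the first cells to enter an infarct. S100a8 and S100a9 encode the subunits of calprotectin, a calcium-binding protein that fills the neutrophil cytosol, is released at sites of injury and can engage the receptors TLR4 and RAGE. Lcn2 encodes lipocalin 2, a secreted protein of the secondary granules that binds iron-loaded siderophores, and it is also made by epithelium, liver and other tissues in the acute phase response. Il1r2 encodes the decoy receptor of interleukin 1, which binds the cytokine and does not signal. Csf3r encodes the receptor for G-CSF, the growth factor that drives neutrophil production and release. Mmp8 and Mmp9 encode neutrophil collagenase and gelatinase B, proteases stored in granules, and Mmp9 is also made by macrophages and other cells. In bulk tissue, fewer cells of a type and less RNA per cell cannot be told apart.

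The promoters of the 4 members whose changes after infarction passed the test in the early infarct are shown so that the genes that moved together can be set side by side. They were taken from RefSeq's table for GRCm38.p6, which held 6 of the 7 members (all but Mmp9). Each runs 5′ to 3′ on the gene's own strand over 300 bases, from 250 before to 50 after the annotated start. S100a8 lies at chr3:90668821-90669120 on the plus strand, S100a9 at chr3:90695672-90695971 on the minus strand, Lcn2 at chr2:32387690-32387989 on the minus strand and Il1r2 at chr1:40085843-40086142 on the plus strand. Capitals mark matches, on either strand, to 4 motifs: TTGCNNAA for C/EBP factors, GAGGAAG for ETS factors such as PU.1, TATAAA for the TATA box, and TGANTCA for AP-1.
S100a8: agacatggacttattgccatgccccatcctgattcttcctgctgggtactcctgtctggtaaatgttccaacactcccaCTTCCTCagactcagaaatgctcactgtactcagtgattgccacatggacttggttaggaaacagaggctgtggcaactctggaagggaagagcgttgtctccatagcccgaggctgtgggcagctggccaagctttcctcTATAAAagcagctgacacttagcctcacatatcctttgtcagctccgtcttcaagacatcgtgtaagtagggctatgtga
S100a9: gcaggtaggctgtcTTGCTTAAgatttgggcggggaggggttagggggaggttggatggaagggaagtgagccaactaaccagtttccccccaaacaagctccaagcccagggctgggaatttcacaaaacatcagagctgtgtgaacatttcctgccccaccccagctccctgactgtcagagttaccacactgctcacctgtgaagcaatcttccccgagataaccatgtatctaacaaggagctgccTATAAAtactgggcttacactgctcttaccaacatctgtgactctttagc
Lcn2: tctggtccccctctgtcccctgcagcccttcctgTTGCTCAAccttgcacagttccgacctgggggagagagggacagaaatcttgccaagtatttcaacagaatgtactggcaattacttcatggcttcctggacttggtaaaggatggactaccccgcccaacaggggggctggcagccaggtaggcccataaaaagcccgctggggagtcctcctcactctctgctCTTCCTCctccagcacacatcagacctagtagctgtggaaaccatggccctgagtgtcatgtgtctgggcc
Il1r2: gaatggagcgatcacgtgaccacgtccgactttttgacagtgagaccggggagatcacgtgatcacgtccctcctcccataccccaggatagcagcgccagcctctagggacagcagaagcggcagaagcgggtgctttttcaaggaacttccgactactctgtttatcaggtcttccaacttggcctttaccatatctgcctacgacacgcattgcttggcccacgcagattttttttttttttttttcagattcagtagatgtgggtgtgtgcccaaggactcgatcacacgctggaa

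S100a8 held an ETS and a TATA match, S100a9 a C/EBP and a TATA match, Lcn2 a C/EBP and an ETS match, and Il1r2 none of the 4. Mmp8 held C/EBP, ETS and TATA matches and Csf3r an ETS match. Among 32851 promoters of the same length in the table, 10.8% held the C/EBP letters, 13.6% the ETS letters, 13.6% the TATA letters and 7.81% the AP-1 letters, which no member's window held. A match is a description of the letters in this window and not a site. S100a8 and S100a9 are next to each other on chromosome 3, with no other protein-coding gene between them, and Il1r2 is next to Il1r1, the signalling receptor of interleukin 1, on chromosome 1.

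In healthy hearts all 7 genes were low. Every day 0 array had each of the 8 probe sets below its own median, in both strains and both regions. S100a8 lay between 2.81 and 3.43 and Lcn2 between 2.51 and 3.02 over all day 0 arrays. None of the members passed the test between MRL and C57 at day 0, where 1.07% of all probe sets tested were called in the infarct site and 1.80% in the noninfarct site. None passed between the infarct and noninfarct sites at day 0, where 0.0304% of probe sets were called in MRL and 0% in C57. At an unadjusted p under 0.05 the count of members was 0 in all 4 of these comparisons too. Tests were limma's moderated test with Benjamini-Hochberg adjustment over all probe sets that exceeded their array's median in at least 3 arrays, and a gene is called at an adjusted p under 0.05. Of the 7 members, 5 passed that filter. Csf3r and Mmp8 did not and are given separately.

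One day after ligation the infarct held high levels of both calprotectin genes in both strains. S100a8 measured 9.03, 10.40, 10.38 and 10.06 in MRL infarcts at day 1, against 3.25, 3.43, 3.34 and 3.23 at day 0. In C57 infarcts it measured 10.44, 10.99, 11.22 and 10.44 at day 1, against 3.32, 3.41 and 3.20 at day 0. Every day 1 array of either strain lay over 5 log2 units above every day 0 array. S100a9 measured 8.74, 10.18, 10.63 and 10.37 in MRL infarcts at day 1, against 3.07 to 3.19 at day 0. In C57 infarcts it measured 10.72, 11.12, 11.11 and 10.79 at day 1, against 3.19 to 3.47 at day 0. Replicate 1 was the lowest of the MRL day 1 arrays for both genes. S100a8 rose by 6.65 ± 0.44 in MRL infarcts (log2 ± SE, 101-fold, limma adjusted p = 3.9e-09) and by 7.47 ± 0.48 in C57 infarcts (177-fold, adjusted p = 3.5e-09). S100a9 rose by 6.84 ± 0.49 in MRL infarcts (114-fold, limma adjusted p = 1.1e-08) and by 7.63 ± 0.53 in C57 infarcts (198-fold, adjusted p = 9.2e-09).

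Lcn2, the siderophore-binding lipocalin, moved as far. It measured 9.12, 9.10, 9.25 and 9.62 in MRL infarcts at day 1, against 2.77 to 3.02 at day 0. In C57 infarcts it measured 10.36, 11.05, 10.60 and 11.56 at day 1, against 2.51 to 2.81 at day 0. The day 1 arrays of both strains stood clear of day 0, and all C57 arrays lay above all MRL arrays. Lcn2 rose by 6.44 ± 0.33 in MRL infarcts (86.7-fold, limma adjusted p = 1.1e-10) and by 8.20 ± 0.36 in C57 infarcts (294-fold, adjusted p = 4.1e-12). Among all probe sets tested, the rises of Lcn2, S100a9 and S100a8 ranked 1, 2 and 3 in C57 infarcts. In MRL infarcts S100a9 ranked 3, S100a8 4 and Lcn2 6.

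Il1r2, the decoy receptor, rose less and less evenly. It measured 4.34, 5.26, 7.35 and 5.71 in MRL infarcts at day 1, against 3.91 to 4.22 at day 0. In C57 infarcts it measured 7.78, 7.35, 7.96 and 7.67 at day 1, against 3.92 to 4.24 at day 0. The 4 C57 arrays were close together, while the MRL arrays ran over about 3 log2 units, replicate 1 just above day 0 and replicate 3 level with the lowest C57 array. The rise was 1.57 ± 0.37 in MRL infarcts (2.96-fold, limma adjusted p = 0.0053) and 3.59 ± 0.40 in C57 infarcts (12-fold, adjusted p = 3.2e-06). Its size in MRL turned on single arrays: it was 1.00 without MRL day 1 replicate 3 (limma adjusted p = 0.005) and 2.01 without replicate 1 (adjusted p = 0.00016).

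Mmp9, gelatinase B, did not pass the test at day 1. Its first probe set measured 4.19, 4.33, 5.08 and 5.17 in MRL infarcts at day 1, against 3.73 to 4.05 at day 0. In C57 infarcts it measured 4.31, 5.01, 5.43 and 6.07 at day 1, against 3.76 to 4.02 at day 0. No day 1 array overlapped day 0 in either strain, although the difference was 0.80 ± 0.52 in MRL (limma adjusted p = 0.28) and 1.36 ± 0.57 in C57 (adjusted p = 0.11). The C57 difference was called, at the same size, without the 2 libraries that went against their labels (limma adjusted p = 0.015). Of these, only MRL infarct day 5 replicate 3 is in the infarct fit, in a group other than those compared. The C57 difference was also called with all 46 arrays in one fit (limma adjusted p = 0.04). Its second probe set differed by 0.30 (limma adjusted p = 0.76) in MRL and 0.67 (adjusted p = 0.53) in C57. In all, 4 of the 5 members tested were called higher in the day 1 infarct in each strain, where 10.4% of all probe sets were called higher in MRL and 9.39% in C57. Among infarct arrays Il1r2 exceeded the array median at day 1 only, so it passed the filter through those arrays. Its rise, its fall by day 5 and its place in these counts are a description, and both of its changes kept their call with no filter. Because day 0 values lie near the floor of the GCRMA scale, these folds depend on it: with 32 added to each intensity before log2, the rises were 4.62 for S100a8, 4.68 for S100a9, 4.06 for Lcn2 and 0.84 for Il1r2 in MRL infarcts. In C57 infarcts they were 5.41 for S100a8, 5.57 for S100a9, 5.65 for Lcn2 and 2.28 for Il1r2, and all were called.

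**Figure D1:**
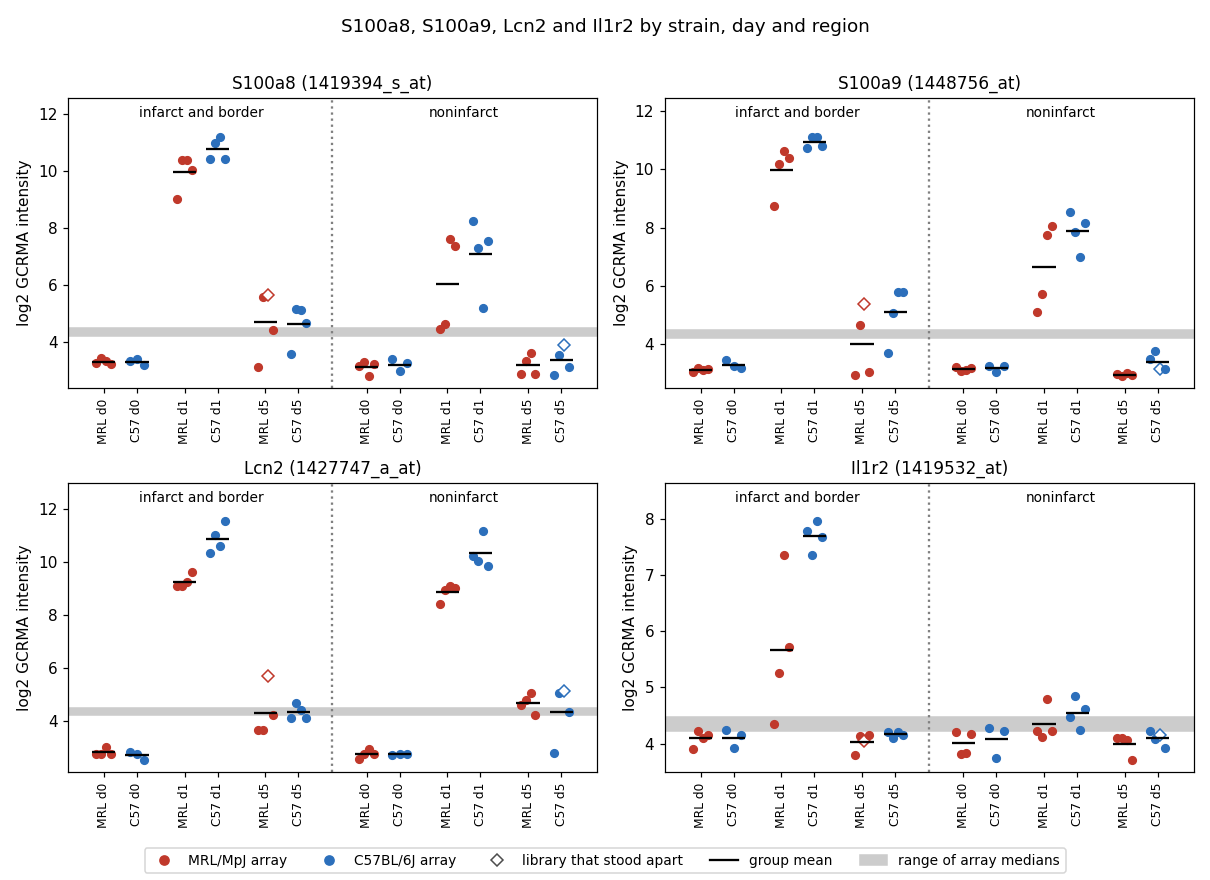
Log2 GCRMA intensity (vertical axis) of S100a8, S100a9, Lcn2 and Il1r2 in each array, by day, strain and region; points are arrays, black lines group means, the grey band is the range of array medians and open diamonds mark the 2 libraries that went against their strain label. S100a8 and S100a9 are highest in day 1 infarcts, between 8.74 and 11.22, while Lcn2 at day 1 is high in both regions, between 8.43 and 11.56.

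The noninfarct piece of the same day showed Lcn2, S100a8 and S100a9 too, at unequal levels. Lcn2 measured 8.43, 8.97, 9.10 and 9.01 in MRL noninfarct tissue at day 1, against 2.55 to 2.95 at day 0. In C57 noninfarct tissue it measured 10.25, 10.03, 11.19 and 9.87 at day 1, against 2.71 to 2.77 at day 0. These arrays again stood clear of day 0 and clear of each other by strain. Lcn2 rose by 6.12 ± 0.37 in MRL (69.5-fold, limma adjusted p = 2.5e-09) and by 7.59 ± 0.40 in C57 noninfarct tissue (193-fold, adjusted p = 1.7e-10), ranks 2 and 1 among all probe sets.

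S100a8 varied far more between noninfarct arrays than Lcn2. It measured 4.46, 4.64, 7.61 and 7.39 in MRL noninfarct tissue at day 1, against 2.81 to 3.31 at day 0. In C57 noninfarct tissue it measured 8.27, 7.29, 5.21 and 7.54 at day 1, against 2.98 to 3.39 at day 0. MRL replicates 1 and 2 and C57 replicate 3 formed the low end, and every array still lay above day 0. S100a9 measured 5.12, 5.73, 7.74 and 8.06 in MRL noninfarct tissue at day 1, against 3.10 to 3.23 at day 0. In C57 noninfarct tissue it measured 8.55, 7.85, 6.99 and 8.16 at day 1, against 3.04 to 3.26 at day 0. The same arrays were low for both calprotectin genes.

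S100a9 rose by 3.50 ± 0.45 in MRL (11.3-fold, limma adjusted p = 0.00026) and by 4.70 ± 0.48 in C57 noninfarct tissue (26.1-fold, adjusted p = 1e-05). S100a8 rose by 2.90 ± 0.61 in MRL (7.46-fold, limma adjusted p = 0.024) and by 3.87 ± 0.66 in C57 (14.6-fold, adjusted p = 0.0021). The MRL call for S100a8 was not firm. It ended with no filter (adjusted p = 0.054), with 32 added before log2 (1.41, adjusted p = 0.11), without any 1 of the 4 MRL day 0 arrays (2.79 to 2.96, adjusted p = 0.057 to 0.073), and without MRL day 1 replicate 3 (2.37, adjusted p = 0.094) or replicate 4 (2.44, adjusted p = 0.088). Il1r2 in noninfarct tissue measured 4.23, 4.12, 4.80 and 4.23 in MRL and 4.47, 4.85, 4.24 and 4.61 in C57 at day 1, close to day 0 (3.82 to 4.21 in MRL and 3.74 to 4.28 in C57). Its difference was 0.34 ± 0.17 in MRL (limma adjusted p = 0.43) and 0.46 ± 0.19 in C57 (adjusted p = 0.18). Mmp9 differed by 0.13 in MRL and 0.12 in C57 (limma adjusted p = 0.94 in both). In all, 3 of 5 members tested were called higher in noninfarct tissue of each strain at day 1, where 0.786% of all probe sets were called higher in MRL and 2.71% in C57. Among noninfarct arrays S100a8, S100a9 and Il1r2 exceeded the array median at day 1 only, so they passed the filter through day 1 arrays. The counts of their rises, and of their falls by day 5, are therefore a description. With no filter the rises kept their call except that of S100a8 in MRL.

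Infarct and noninfarct tissue of the same day were then compared directly. At day 1, S100a8 was higher in infarct than in noninfarct tissue by 3.94 ± 0.55 in MRL (95% interval 2.82 to 5.06, limma adjusted p = 5.7e-05) and by 3.70 ± 0.55 in C57 (2.58 to 4.82, adjusted p = 3.7e-05). S100a9 was higher in infarct tissue by 3.32 ± 0.49 in MRL (2.33 to 4.30, limma adjusted p = 0.00012) and by 3.05 ± 0.49 in C57 (2.06 to 4.03, adjusted p = 1e-04). Il1r2 was higher in infarct tissue by 1.32 ± 0.29 in MRL (0.73 to 1.91, limma adjusted p = 0.0058) and by 3.15 ± 0.29 in C57 (2.56 to 3.74, adjusted p = 6e-09). The MRL difference of Il1r2 was 0.76 without MRL infarct day 1 replicate 3 (limma adjusted p = 0.02) and 1.76 without replicate 1 (adjusted p = 2.4e-05). Lcn2 was not called: its difference was 0.40 ± 0.36 in MRL (-0.33 to 1.12, limma adjusted p = 0.50) and 0.56 ± 0.36 in C57 (-0.17 to 1.29, adjusted p = 0.33), intervals that end below those of both calprotectin genes. Mmp9 differed by 0.60 in MRL (limma adjusted p = 0.41) and by 1.20 ± 0.46 in C57 (adjusted p = 0.097). The C57 difference of Mmp9 was called without C57 infarct day 1 replicate 1 (1.50, limma adjusted p = 0.04) and without the 2 libraries that went against their labels (1.20, adjusted p = 0.0047). In all, 3 of 5 members were called higher in infarct tissue in each strain, against 4.44% of all probe sets in MRL and 3.93% in C57.

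To compare members within an array, the log2 value of Lcn2 was subtracted from that of the other gene in the same array, and infarct and noninfarct arrays of day 1 were compared by a two-sided exact permutation test. The test was prompted by these same values, so its p-values describe them and are no independent evidence. S100a8 minus Lcn2 ran between -0.09 and 1.30 in MRL infarcts, against -4.33 to -1.49 in MRL noninfarct tissue, and between -1.12 and 0.62 in C57 infarcts, against -5.98 to -1.98 in C57 noninfarct tissue. The regions did not overlap in either strain. The mean difference was 3.55 in MRL and 3.14 in C57 for S100a8, and 2.92 in MRL and 2.49 in C57 for S100a9 (exact permutation p = 0.0286 each, the smallest that 4 against 4 arrays allow, adjusted p = 0.0343 over 6 tests). Il1r2 minus Lcn2 differed by 2.59 between regions in C57 (exact permutation p = 0.0286, adjusted p = 0.0343) and by 0.93 in MRL (exact permutation p = 0.171, adjusted p = 0.171). With 32 added before log2, the mean difference was 2.88 in MRL and 2.79 in C57 for S100a8, 2.50 in MRL and 2.33 in C57 for S100a9, and 1.56 in C57 for Il1r2 (exact permutation p = 0.0286 each). For Il1r2 in MRL it was then 0.38 (exact permutation p = 0.60).

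**Figure D2:**
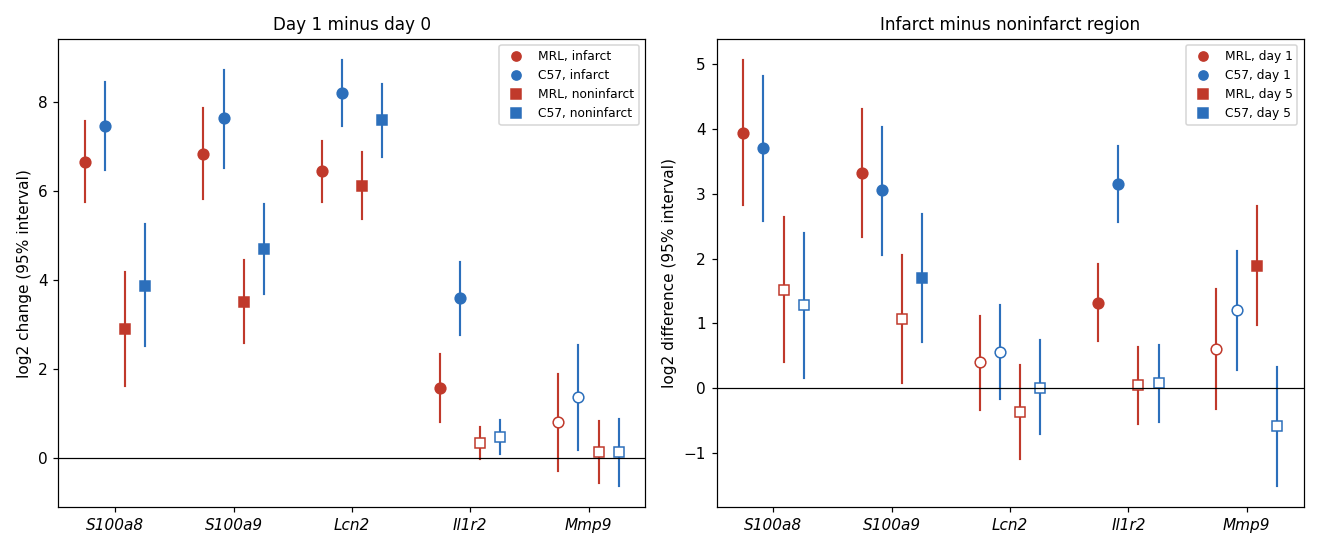
Log2 differences of the 5 tested members with 95% intervals (vertical axis) by gene; the left panel shows day 1 minus day 0 by strain and region, the right panel infarct minus noninfarct at days 1 and 5, and filled points have an adjusted p under 0.05. Lcn2 rises by 6.12 to 8.20 in both regions, while its day 1 difference between regions is 0.40 in MRL and 0.56 in C57, against 3.05 to 3.94 for S100a8 and S100a9.

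By day 5 the early markers had come most of the way down. S100a8 in infarcts measured 3.14, 5.59, 5.66 and 4.42 in MRL and 3.59, 5.16, 5.14 and 4.67 in C57. S100a9 measured 2.94, 4.68, 5.40 and 3.07 in MRL infarcts and 3.72, 5.09, 5.80 and 5.79 in C57 infarcts. Lcn2 measured 3.67, 3.65, 5.70 and 4.23 in MRL infarcts and 4.11, 4.69, 4.42 and 4.13 in C57 infarcts. Replicate 1 was the lowest array of each strain for S100a8, close to day 0, and no day 5 infarct reached any day 1 infarct for these 3 genes. Relative to day 1, S100a8 fell by 5.26, S100a9 by 5.95, Lcn2 by 4.96 and Il1r2 by 1.63 in MRL infarcts (limma adjusted p = 0.0029 for Il1r2 and smaller for the others). Without the 2 libraries that went against their labels these changes were -5.58 for S100a8, -6.41 for S100a9, -5.42 for Lcn2 and -1.63 for Il1r2. The Il1r2 change was -1.07 without MRL day 1 replicate 3 (limma adjusted p = 0.0027) and -2.07 without replicate 1 (adjusted p = 7.5e-05). In C57 infarcts S100a8 fell by 6.13, S100a9 by 5.83, Lcn2 by 6.56 and Il1r2 by 3.52 (largest limma adjusted p = 5.3e-07). In C57 infarcts Mmp9 was also called lower (-1.49 ± 0.52, limma adjusted p = 0.034), but its second probe set was not (-0.71, adjusted p = 0.37). That call ended without C57 day 1 replicate 3 (-1.41, limma adjusted p = 0.06) or 4 (-1.20, adjusted p = 0.1) and without C57 day 5 replicate 2 (-1.50, adjusted p = 0.066), 3 (-1.54, adjusted p = 0.055) or 4 (-1.41, adjusted p = 0.081). In all, 4 of 5 members in MRL and 5 of 5 in C57 were called lower, against 13.8% and 15.7% of all probe sets.

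A remainder above day 0 was called for some members in the day 5 infarct. Lcn2 was 1.48 ± 0.33 above day 0 in MRL infarcts (limma adjusted p = 0.0012) and 1.64 ± 0.36 in C57 infarcts (adjusted p = 0.0013). S100a8 was 1.39 ± 0.44 above day 0 in MRL (limma adjusted p = 0.014) and 1.33 ± 0.48 in C57 (adjusted p = 0.029). S100a9 was 1.79 ± 0.53 above day 0 in C57 infarcts (limma adjusted p = 0.01), while in MRL its difference was 0.88 ± 0.49 (adjusted p = 0.15). Il1r2 was back at day 0 level, -0.06 from it in MRL and 0.06 in C57 infarcts. With Mmp9 in MRL, 3 of 5 members were called higher in each strain, against 23.6% of all probe sets in MRL and 23.4% in C57.

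These remainders were small and sensitive. With 32 added before log2 no member passed in C57 infarcts, where the differences were 0.48 for S100a8, 0.72 for S100a9 and 0.44 for Lcn2, and in MRL infarcts S100a8 (0.56, limma adjusted p = 0.09) and Lcn2 (0.46, adjusted p = 0.075) did not pass. The S100a8 call in C57 ended with no filter (limma adjusted p = 0.055), without any of the 3 day 0 arrays (adjusted p = 0.059 to 0.079) and without day 5 replicate 2 (1.16, adjusted p = 0.085), 3 (1.17, adjusted p = 0.08) or 4 (1.32, adjusted p = 0.056). In MRL it ended without day 5 replicate 2 (1.09, limma adjusted p = 0.062). Without the 2 libraries that went against their labels, S100a8 was 1.07 ± 0.44 (limma adjusted p = 0.048), Lcn2 1.02 ± 0.24 (adjusted p = 0.0013) and S100a9 0.43 (adjusted p = 0.46) above day 0 in MRL infarcts.

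In noninfarct tissue at day 5, Lcn2 alone among the 5 tested members was called above day 0. It measured 4.62, 4.79, 5.06 and 4.24 in MRL and 2.79, 5.04, 5.12 and 4.34 in C57. All MRL arrays lay above day 0, and C57 replicate 1 was close to day 0. The difference was 1.92 ± 0.37 in MRL (limma adjusted p = 9e-04) and 1.58 ± 0.40 in C57 (adjusted p = 0.011), or 1.31 ± 0.39 in C57 (adjusted p = 0.039) without the 2 libraries that went against their labels, and neither passed with 32 added before log2 (0.58 in MRL, adjusted p = 0.054, and 0.49 in C57, adjusted p = 0.13). That is 1 of 5 members, against 16.0% of all probe sets called higher in MRL and 11.6% in C57. S100a8 at 2.88 to 3.61 in MRL and 2.86 to 3.90 in C57, and S100a9 at 2.92 to 3.01 in MRL and 3.15 to 3.79 in C57, were low again in noninfarct tissue. Relative to day 1, 3 of 5 members were called lower in noninfarct tissue of each strain (2.50% of all probe sets in MRL, 10.5% in C57): S100a8 fell by 2.85 in MRL and 3.72 in C57, S100a9 by 3.70 in MRL and 4.49 in C57, and Lcn2 changed by -4.20 in MRL and -6.01 in C57. Without the 2 libraries the C57 changes were -3.90 for S100a8, -4.41 for S100a9 and -6.28 for Lcn2.

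Between regions at day 5, S100a9 was 1.70 ± 0.49 higher in infarct than in noninfarct tissue of C57 hearts (limma adjusted p = 0.032), or 1.62 ± 0.50 (adjusted p = 0.011) without the 2 libraries that went against their labels. That call ended without C57 infarct replicate 2 (1.71, limma adjusted p = 0.11), 3 (1.47, adjusted p = 0.097) or 4 (1.47, adjusted p = 0.13), without C57 noninfarct replicate 1 (1.73, adjusted p = 0.13), 2 (1.83, adjusted p = 0.052) or 4 (1.62, adjusted p = 0.072), with no filter (adjusted p = 0.055) and with 32 added before log2 (0.70, adjusted p = 0.15). S100a8 differed by 1.28 in C57 (limma adjusted p = 0.12) and by 1.52 in MRL (adjusted p = 0.058). With both mismatched libraries left out, S100a8 differed by 1.20 in MRL (limma adjusted p = 0.11) and by 1.47 in C57 (adjusted p = 0.052). With the replicate number as a block the MRL difference was called (1.52, limma adjusted p = 0.026). The C57 difference was called without C57 infarct replicate 1 (1.64, limma adjusted p = 0.038), and the MRL difference without MRL infarct replicate 1 (2.04, adjusted p = 0.044). Lcn2 differed by -0.36 in MRL (limma adjusted p = 0.54), or by -0.83 ± 0.32 (adjusted p = 0.041, lower in infarct) without the 2 libraries that went against their labels, and by 0.01 in C57 (adjusted p = 0.98). Counting Mmp9, 1 of 5 members was called higher in infarct tissue in each strain at day 5, against 4.48% of all probe sets in MRL and 5.05% in C57.

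In MRL infarcts Mmp9 followed another course from the other tested members and was highest at day 5. In C57 infarcts its mean was 3.85 at day 0, 5.20 at day 1 and 3.72 at day 5, highest at day 1 like the other tested members. Its first probe set measured 7.44, 5.53, 3.63 and 6.76 in MRL infarcts at day 5, against 3.73 to 4.05 at day 0, and 3.78, 3.75, 3.86 and 3.47 in C57 infarcts at day 5. The second probe set measured 6.34, 4.55, 1.50 and 5.26 in MRL infarcts and 1.55, 1.52, 1.57 and 1.52 in C57 infarcts at day 5. On both probe sets 3 MRL arrays were far above all C57 arrays, and the MRL array at C57 level was replicate 3, the library that went against its label. In noninfarct tissue at day 5, the first probe set measured 3.71, 4.51, 3.88 and 3.70 in MRL and 3.99, 3.64, 5.95 and 3.64 in C57. The second probe set measured 1.52, 1.53, 1.52 and 1.49 in MRL and 1.59, 1.52, 4.55 and 1.53 in C57 noninfarct tissue. The high C57 noninfarct array was also replicate 3, the other library that went against its label. Among infarct arrays the second probe set exceeded the array median in the 3 high MRL day 5 arrays and in no other, so it passed the filter through them and had to be higher there. Its values below are a description and give the first probe set no independent support.

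With all libraries, Mmp9 rose by 1.95 ± 0.52 between day 0 and day 5 in MRL infarcts (3.85-fold, limma adjusted p = 0.0047), and the second probe set by 2.84 ± 0.61 (7.16-fold, adjusted p = 0.00082). Without the 2 libraries the rise was 2.68 ± 0.38 (limma adjusted p = 5.7e-06), and 3.81 ± 0.34 on the second probe set (adjusted p = 1.8e-08). From day 1 to day 5 the change in MRL infarcts was 1.15 ± 0.52 (limma adjusted p = 0.1, or 0.043 with all 46 arrays in one fit), called on the second probe set (2.54 ± 0.61, adjusted p = 0.0043) and, without the 2 libraries, on the first (1.88 ± 0.38, adjusted p = 0.00051). The infarct fit holds only 1 of the 2 libraries, MRL day 5 replicate 3, so leaving out that array alone is the same fit (1.88). In C57 infarcts the day 5 difference from day 0 was -0.13 (limma adjusted p = 0.87).

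Between strains at day 5, Mmp9 was 2.13 ± 0.52 higher in MRL than in C57 infarcts (4.36-fold), which did not pass (limma adjusted p = 0.073), while the second probe set passed with 2.87 ± 0.61 (adjusted p = 0.023). Calls of Mmp9 were counted on the first probe set, so limma called 0 of 5 members higher in MRL infarcts at day 5, against 0.179% of all probe sets, and 2 had an unadjusted p under 0.05. Without the 2 libraries the difference was 2.86 ± 0.38 (limma adjusted p = 4.5e-05), and 3.84 ± 0.34 on the second probe set (adjusted p = 1.6e-07). Of the 2, only MRL day 5 replicate 3 is in the infarct fit, so leaving it out alone is the same fit and not a second check. The second probe set's call with all libraries ended without C57 day 5 replicate 2 (2.86, limma adjusted p = 0.078), 3 (2.88, adjusted p = 0.076) or 4 (2.86, adjusted p = 0.082), with no filter (adjusted p = 0.07) and with 32 added before log2 (0.84, adjusted p = 0.07). Without MRL day 5 replicate 1, 2 or 4 the second probe set no longer passed the filter and was not tested. The test of whether the day 5 change differed between strains gave 2.08 ± 0.77 (limma adjusted p = 1) with all libraries, where 0.156% of probe sets were called, and 2.82 ± 0.53 (adjusted p = 0.01) without the 2 libraries, where 0.577% of probe sets were called. On the second probe set that test gave 2.88 ± 0.89 (limma adjusted p = 0.62) with all libraries and 3.85 ± 0.47 (adjusted p = 8e-05) without the 2.

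Within MRL hearts Mmp9 was 1.89 ± 0.46 higher in infarct than in noninfarct tissue at day 5 (limma adjusted p = 0.0087), and 2.90 ± 0.54 on the second probe set (adjusted p = 0.002). That call ended without MRL infarct replicate 1 (1.35, limma adjusted p = 0.069) or 4 (1.58, adjusted p = 0.054). Without the 2 libraries it was 2.63 ± 0.30 (limma adjusted p = 3.7e-08). In C57 hearts the difference was -0.59 (limma adjusted p = 0.41), or -0.04 (adjusted p = 0.94) without the 2 libraries. Summed intensity of the 21 macrophage markers in day 5 infarcts was 12000 to 76100 in MRL (63300 to 76100 without replicate 3) and 34400 to 63200 in C57. The ranges overlap with replicate 3, and without it they are set apart only by 63200 in C57 against 63300 in MRL. Of the 21 markers, limma called 0 higher in MRL than in C57 infarcts at day 5, with all libraries or without the 2. The share of all probe sets called higher was 0.179% with all libraries and 1.29% without the 2. The part of these cells in the Mmp9 difference was not tested.

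**Figure D3:**
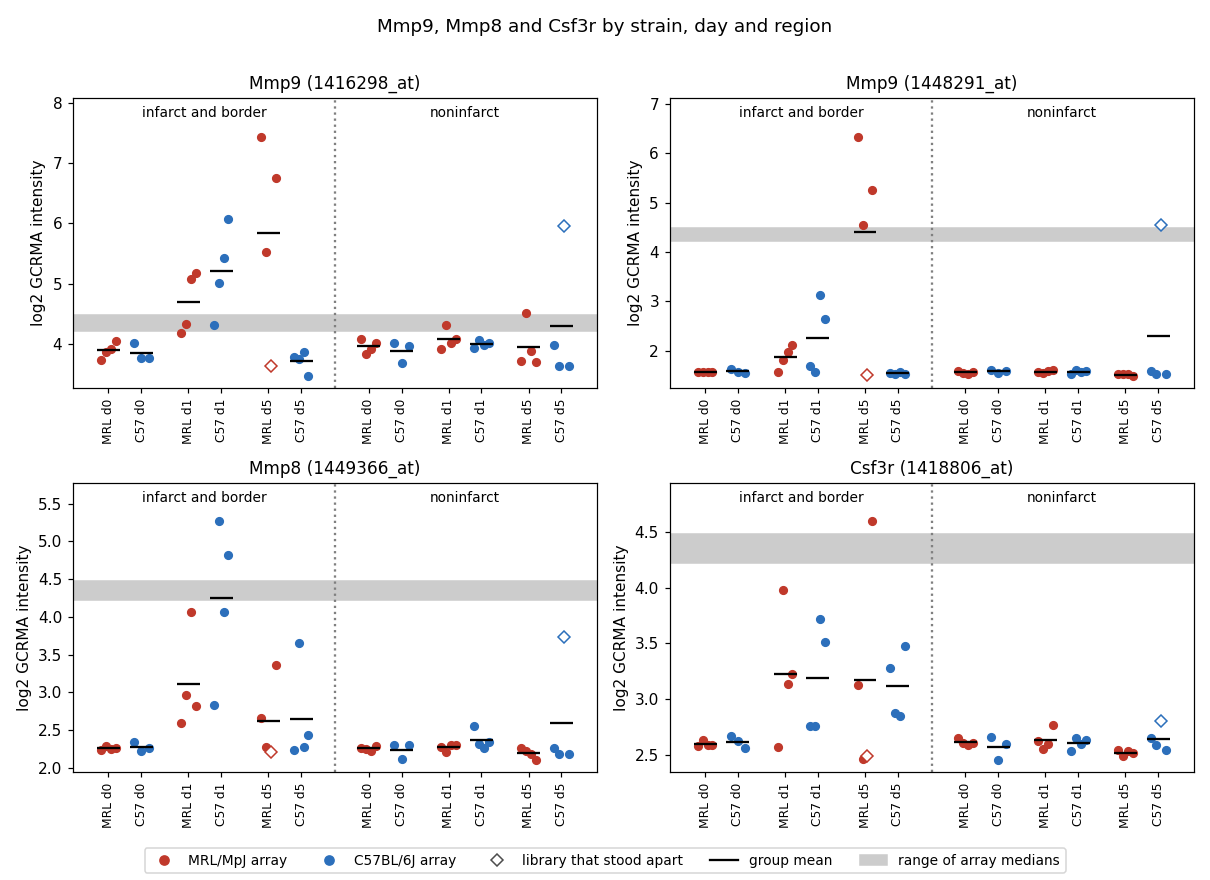
Log2 GCRMA intensity (vertical axis) of both Mmp9 probe sets (first on the left), Mmp8 and Csf3r in each array, by day, strain and region; points are arrays, black lines group means, the grey band is the range of array medians and open diamonds mark the 2 libraries that went against their strain label. Mmp9 reaches 7.44 in MRL infarcts at day 5, and the open diamonds sit at 3.63 in MRL infarct and 5.95 in C57 noninfarct tissue.

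Mmp8 and Csf3r, the collagenase and the G-CSF receptor, did not pass the filter and were tested only in the fit without it, over 22626 probe sets. Mmp8 measured 2.59, 2.97, 4.07 and 2.82 in MRL infarcts at day 1, against 2.24 to 2.29 at day 0, and 2.84, 5.27, 4.06 and 4.82 in C57 infarcts at day 1, against 2.23 to 2.35 at day 0. All day 1 infarct arrays were above day 0, with 3 of the 4 C57 arrays well above it. The difference was 1.96 ± 0.47 in C57 (limma adjusted p = 0.014) and 0.85 ± 0.43 in MRL (adjusted p = 0.26). In C57 hearts Mmp8 was 1.88 ± 0.35 higher in infarct than in noninfarct tissue at day 1 (limma adjusted p = 0.0017), against 0.84 in MRL (adjusted p = 0.18). The strain difference in day 1 infarcts was -1.13 ± 0.43 (limma adjusted p = 0.51). Csf3r measured 2.57, 3.98, 3.14 and 3.23 in MRL infarcts at day 1 and 2.76, 2.76, 3.72 and 3.51 in C57 infarcts, against 2.58 to 2.63 and 2.56 to 2.67 at day 0. It was not called, with 0.63 ± 0.37 in MRL (limma adjusted p = 0.35) and 0.57 ± 0.40 in C57 (adjusted p = 0.53), and its noninfarct arrays all lay between 2.45 and 2.80. At day 5, Mmp8 measured 2.66, 2.28, 2.21 and 3.36 in MRL infarcts and 2.24, 3.65, 2.28 and 2.44 in C57 infarcts. Csf3r measured 3.13, 2.46, 2.49 and 4.60 in MRL infarcts and 3.28, 2.88, 2.85 and 3.48 in C57 infarcts. Arrays within each of these groups were uneven, and the strains overlapped.

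Between strains at day 1, 2 of the 5 tested members passed in the infarct, Il1r2 and Lcn2, and 3 did not. Il1r2 averaged 5.66 ± 1.26 in MRL and 7.69 ± 0.26 in C57 infarcts (SD, n = 4 each), and only MRL replicate 3 touched the C57 range. The difference was -2.03 ± 0.37 (95% interval -2.79 to -1.27, 4.09-fold higher in C57, limma adjusted p = 0.0059). Lcn2 averaged 9.27 ± 0.24 in MRL and 10.89 ± 0.53 in C57 infarcts (SD, n = 4 each), without overlap. The difference was -1.62 ± 0.33 (-2.31 to -0.93, 3.07-fold higher in C57, limma adjusted p = 0.015). The Lcn2 call ended without MRL replicate 1 (-1.57, limma adjusted p = 0.055) or 2 (-1.56, adjusted p = 0.052) and without C57 replicate 2 (-1.57, adjusted p = 0.053) or 4 (-1.40, adjusted p = 0.066). S100a8 averaged 9.96 ± 0.64 in MRL and 10.77 ± 0.39 in C57 infarcts, and S100a9 averaged 9.98 ± 0.84 in MRL and 10.93 ± 0.21 in C57 infarcts (SD, n = 4 each). For both, every C57 array was above every MRL array, but only just. The lowest C57 array was at 10.44 and the highest MRL array at 10.40 for S100a8, and at 10.72 and 10.63 for S100a9. How many of all probe sets keep the strains apart in this way was not counted. The differences of -0.81 ± 0.44 (-1.73 to 0.11, limma adjusted p = 0.65) and -0.96 ± 0.49 (-1.98 to 0.07, adjusted p = 0.60) did not pass. Mmp9 differed by -0.51. That is 2 of 5 members called lower in MRL, against 0.631% of all probe sets.

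In noninfarct tissue at day 1, Lcn2 averaged 8.88 ± 0.30 in MRL and 10.33 ± 0.59 in C57 (SD, n = 4 each), again without overlap. The difference was -1.46 ± 0.37 (-2.22 to -0.70, 2.75-fold higher in C57, limma adjusted p = 0.032). The call ended without MRL replicate 1 (-1.31, limma adjusted p = 0.12), 2 (-1.49, adjusted p = 0.066) or 4 (-1.50, adjusted p = 0.06), without C57 replicate 1 (-1.49, adjusted p = 0.077) or 3 (-1.17, adjusted p = 0.1), and with no filter (adjusted p = 0.071). S100a9 differed by -1.23 ± 0.45 (limma adjusted p = 0.18) and was called without MRL replicate 4 (-1.69, adjusted p = 0.035). S100a8 differed by -1.05 (limma adjusted p = 0.50) and Il1r2 by -0.20 (adjusted p = 0.72). That is 1 of 5 members called lower in MRL, against 1.34% of all probe sets. In noninfarct tissue at day 5 no member was called between strains or had an unadjusted p under 0.05, where 1.25% of all probe sets were called.

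Whether the day 1 change itself differed between strains was tested as an interaction, and no member passed with all libraries in either region. The interaction was -2.02 ± 0.54 for Il1r2 (limma adjusted p = 0.69) and -1.76 ± 0.49 for Lcn2 (adjusted p = 0.72) in infarcts, and -1.47 ± 0.54 for Lcn2 in noninfarct tissue (adjusted p = 1). All are negative, the direction of a smaller change in MRL, and 0.0468% of all probe sets were called in infarcts and 0.00810% in noninfarct tissue. At an unadjusted p under 0.05, limma's interaction test gave 2 members in infarcts and 1 in noninfarct tissue. The Il1r2 interaction was called without MRL infarct day 1 replicate 3 (-2.58, limma adjusted p = 0.00057), and that of Lcn2 without the 2 libraries that went against their labels (-1.76, adjusted p = 0.045). The strain comparison at day 1 and the day 1 change share their day 1 arrays, and the day 1 and day 5 changes share day 0, so these results are not independent of each other.

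**Figure D4:**
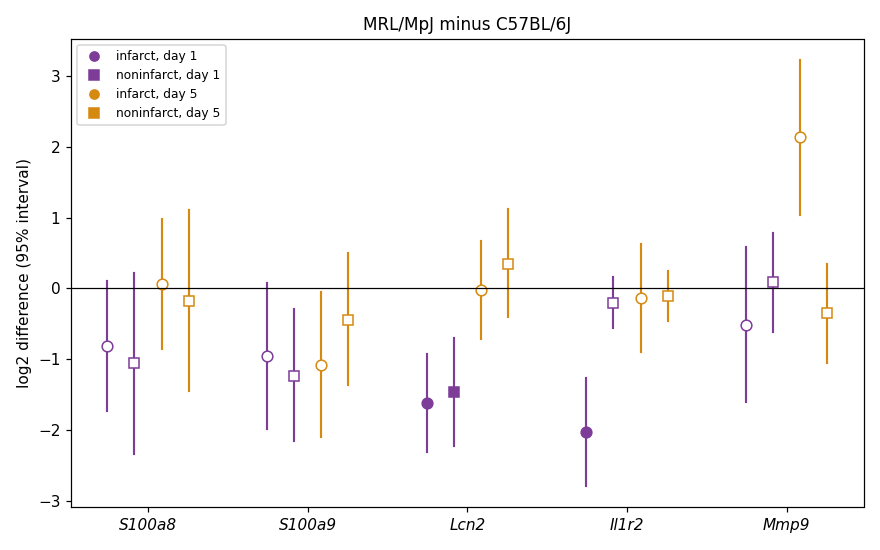
MRL minus C57 log2 differences of the 5 tested members with 95% intervals (vertical axis) by gene at days 1 and 5 in infarct and noninfarct tissue; filled points have an adjusted p under 0.05. Il1r2 at -2.03 and Lcn2 at -1.62 are lower in MRL infarcts at day 1, and Mmp9 at 2.13 is higher in MRL infarcts at day 5 without passing.

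Some of the other genes listed for neutrophils moved in the same tissue. Of 32 listed, 25 were on the array and 16 were tested in infarcts. At day 1, 9 were called higher in MRL and 8 in C57. The median change was 1.77 in MRL and 1.98 in C57 (0 and 0.01 over all probe sets). Of the 25 on the array, 9 exceeded the array median in no day 1 infarct array of MRL, and 9 in none of C57. Which cells held these RNAs was not tested. Over all probe sets, 10.4% were called higher in MRL and 9.39% in C57 infarcts at day 1, and 0.786% in MRL and 2.71% in C57 noninfarct tissue. In MRL infarcts the largest were Clec4d, a lectin receptor of myeloid cells (3.69 ± 0.86, limma adjusted p = 0.0049), Ptgs2, the inducible cyclooxygenase (3.16 ± 0.67, adjusted p = 0.0027), the formyl peptide receptor Fpr2 (2.73, adjusted p = 0.0025) and haptoglobin, Hp (2.60, adjusted p = 0.0069). In C57 infarcts they were the chitinase-like Chil3 (4.62 ± 0.94, limma adjusted p = 0.0021), Ptgs2 (3.78 ± 0.72, adjusted p = 0.0013), Hp (3.60 ± 0.68, adjusted p = 0.0012) and Lrg1, a secreted granule and acute phase glycoprotein (3.07 ± 0.40, adjusted p = 2.4e-05). In noninfarct tissue 12 were tested, and 1 was called in MRL (Lrg1, 1.78 ± 0.30, limma adjusted p = 0.0045) and 2 in C57 (Lrg1, 3.68 ± 0.33, adjusted p = 1.4e-06; Hp, 2.27 ± 0.51, adjusted p = 0.014). Lrg1 showed no regional difference at day 1 beyond its error (infarct minus noninfarct 0.01 ± 0.35 in MRL, limma adjusted p = 0.99, and -0.49 ± 0.35 in C57, adjusted p = 0.37). Lrg1 was also lower in MRL than in C57 noninfarct tissue (-1.18 ± 0.30, limma adjusted p = 0.038). The primary granule genes Mpo, Elane, Prtn3 and Ctsg, which neutrophils transcribe in bone marrow precursors, were below the median in every array.

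Genes that draw neutrophils in rose in infarcts. Of 11 listed, 8 were tested there, and 7 were called higher at day 1 in MRL and 8 in C57. The share of all probe sets called higher at day 1 was 10.4% in MRL and 9.39% in C57 infarcts, and 0.786% in MRL and 2.71% in C57 noninfarct tissue. Cxcl2 and Cxcl1, ligands of the neutrophil receptor CXCR2, rose by 4.81 ± 0.89 (limma adjusted p = 0.00084) and 4.75 ± 0.79 (adjusted p = 0.00034) in MRL infarcts, and by 6.93 ± 0.96 (adjusted p = 4.8e-05) and 5.84 ± 0.86 (adjusted p = 9.5e-05) in C57 infarcts. Cxcl5 rose by 2.51 ± 0.72 in MRL (limma adjusted p = 0.018) and 4.81 ± 0.78 in C57 (adjusted p = 0.00026), and the platelet chemokine precursor Ppbp by 3.40 ± 0.66 in MRL (adjusted p = 0.0013) and 5.61 ± 0.71 in C57 (adjusted p = 1.8e-05). None of the 8 was called between strains in infarcts at day 1 (Cxcl5, -2.42, limma adjusted p = 0.14), where 3 had an unadjusted p under 0.05. In noninfarct tissue limma called 0 of 6 tested in MRL (5 at an unadjusted p under 0.05) and 1 in C57 (Ppbp, 3.34 ± 0.43, limma adjusted p = 0.00016), and Ppbp was lower in MRL than in C57 (-3.19 ± 0.39, adjusted p = 4.9e-05). Csf3, which encodes G-CSF, did not pass the filter.

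Of 17 partners of the members (receptors, ligands, inhibitors and signal transducers), 11 were tested in infarcts, and 5 were called higher at day 1 in each strain and 1 lower in MRL. Of all probe sets in infarcts, 10.4% were called higher in MRL and 9.39% in C57, and 11.1% were called lower in MRL. In noninfarct tissue 0.786% were called higher in MRL and 2.71% in C57. Timp1, the tissue inhibitor that binds MMP9, rose by 8.33 ± 0.56 in MRL (limma adjusted p = 3.9e-09) and by 7.32 ± 0.60 in C57 infarcts (adjusted p = 1e-07). Socs3, which restrains G-CSF and interleukin 6 signalling, rose by 4.74 ± 0.52 in MRL (limma adjusted p = 3e-06) and 5.15 ± 0.56 in C57 (adjusted p = 2.6e-06). Il1b, the interleukin 1 that Il1r2 captures, rose by 3.82 ± 0.66 in MRL (limma adjusted p = 0.00051) and 3.68 ± 0.72 in C57 (adjusted p = 0.0015), with a strain difference of 0.03 (adjusted p = 1). The signalling receptor Il1r1 rose by 1.07 ± 0.38 in MRL (limma adjusted p = 0.047) and differed by 0.99 in C57 (adjusted p = 0.1). Timp2 fell by 1.51 in MRL infarcts (limma adjusted p = 0.02). Myd88, the adaptor of interleukin 1 and Toll-like receptors, rose in C57 (1.49 ± 0.35, limma adjusted p = 0.0072) and was lower in MRL than in C57 infarcts at day 1 (-1.57 ± 0.33, adjusted p = 0.018) and at day 5 (-1.65 ± 0.33, adjusted p = 0.014, or -1.79 ± 0.35, adjusted p = 0.004, without the 2 libraries that went against their labels). Il1rn did not pass the filter. In noninfarct tissue Timp1, Socs3 and Stat3 were the 3 of 10 called in each strain at day 1, and Timp1 rose by 6.33 in MRL (limma adjusted p = 5.8e-06) and 5.50 in C57 (adjusted p = 0.00011).

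Markers of other cells moved with some of these results. Of 21 macrophage markers, all tested, 9 were called higher in MRL and 3 in C57 infarcts at day 1, 0 by limma in noninfarct tissue of either strain (at an unadjusted p under 0.05, 2 in MRL and 3 in C57), and 20 in day 5 infarcts of each strain, with and without the 2 libraries that went against their labels. Over all probe sets the share called higher was 10.4% in MRL and 9.39% in C57 infarcts at day 1, and 23.6% in MRL and 23.4% in C57 infarcts at day 5. Their summed intensity in day 1 infarcts was 3890 to 15000 in MRL and 2820 to 15900 in C57, which overlap. The summed intensity of the 7 neutrophil markers (1 probe set each) was 1560 to 3740 in MRL and 4640 to 6620 in C57, which do not. Most of that sum is Lcn2, S100a8 and S100a9 (mean intensity 626, 1070 and 1120 in MRL, and 2000, 1800 and 1970 in C57). It therefore repeats the separation of these genes given above and is not a result of all 7. How many of all probe sets separate the strains in this way was not counted. The 25 other neutrophil genes on the array summed to 2610 to 4170 in MRL and 3070 to 5850 in C57 infarcts at day 1, which overlap. The 9 heart muscle genes summed to 189000 to 205000 in MRL and 148000 to 219000 in C57 infarcts at day 1. Of 6 fibroblast genes, 1 was called higher in MRL and 2 in C57 infarcts at day 1, and 6 in day 5 infarcts of each strain, with and without the 2 libraries. Of 5 red cell and platelet markers on the array, Hba-a1, Itga2b and Gp1bb were below the median in every array. The list summed to 334 to 1500 in MRL and 379 to 1520 in C57 infarcts at day 1, against 163 to 182 in MRL and 246 to 309 in C57 at day 0. In noninfarct tissue it summed to 198 to 400 in MRL and 266 to 566 in C57 at day 1, against 174 to 212 in MRL and 244 to 283 in C57 at day 0. Pf4, a platelet chemokine, was called higher in day 1 infarcts (2.46 ± 0.45 in MRL, limma adjusted p = 0.00074, and 1.44 ± 0.48 in C57, adjusted p = 0.047), and Alas2, the heme synthesis enzyme of red cells, differed by -0.01 in both strains. The 5 eosinophil and basophil markers were below the median in every array. The part of these cells in the day 1 differences was not tested.

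The 7 members did not share one pattern. Over the 12 group means, S100a8 and S100a9 were the most alike pair (Pearson r = 0.991), and their deviations from the group means over 46 arrays also ran together (r = 0.869). S100a8 and Lcn2 were alike over group means (r = 0.903) and far less so within groups (r = 0.20). Against the average of the other members, r was 0.945 for S100a8, 0.901 for S100a9, 0.886 for Mmp8, 0.881 for Il1r2, 0.75 for Lcn2, 0.706 for Csf3r and 0.562 for Mmp9. Among 7755 other genes, those closest to the members' average over the 12 groups were Atf3 (0.976), Ndrg1 (0.97), Srgn (0.962), Ptx3 (0.962), Plaur (0.962), Slc2a1 (0.961), Maff (0.961) and Hilpda (0.961). These are descriptions over groups that share arrays' processing and the rise at day 1, and carry no test.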

How the data were processed

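Total RNA of 46 left ventricle samples was hybridised to Affymetrix MOE430A arrays, 1 array per sample. The values used are the authors' deposited intensity values, made with GCRMA per the submitters' processing notes (version not given in the sources used here); their scale was read from the values, which are linear with a smallest value of 1.03. GCRMA sets unexpressed probe sets to a common low level, so folds from that level depend on it. Groups came from the sample titles. Genes were named from GEO's platform annotation: of 22690 probe sets, 64 controls were left out, 20380 had 1 symbol, 691 several and 1555 none. No 2 arrays held identical values, and the number of arrays limits the precision.

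Log2 values (pseudocount 0) went into linear models of limma 3.58.1 (R 4.3.3), with eBayes and Benjamini-Hochberg adjustment. Comparisons within a region used its 23 arrays, and infarct minus noninfarct used all 46. A fit of 1 region therefore holds only 1 of the 2 libraries that went against their labels. Probe sets above their array's median in at least 3 arrays were tested: 12834 in infarct, 12344 in noninfarct and 13138 in both. Intervals are 95% limits from the moderated t distribution. Python 3.11.15 with SciPy 1.17.1 gave the exact permutation tests, which were added after the values were seen, as was their repeat with an offset of 32; matplotlib 3.10.9 drew the figures. The code was tested on simulated data. Alternatives were no filter, quantile normalization, centring on the median, an offset of 32, all 46 arrays in one fit (arrays of the strain alone for regions), a replicate block, each array left out in turn, both libraries that stood apart left out, eBayes with trend and robust, and the mean of the Mmp9 probe sets.

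The named genes were all 7 members, up to 4 called genes of each other list with the largest change, a fixed set of partners and attractants, and the 8 genes most like the members' average. The members and lists were chosen with earlier results of these data known. Replicate numbers recur across groups, but correlations of same-numbered infarct and noninfarct deviations ran from -0.46 to 0.77 (0.34 to 0.56 in MRL and -0.46 to 0.15 in C57 at day 1; -0.02 to 0.47 in MRL and -0.01 to 0.77 in C57 at day 5). Not every pair was over 0.1, so no pairing was used. Each heart gave a piece of both regions, so the region comparisons and the permutation tests treat pieces of one heart as independent. Their p-values take no account of such a link.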

Additional observations from a re-analysis of the deposited data

Results flagged for a closer look

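In groups of 4 arrays, the highest or lowest array was set apart from the others by Dixon's ratio at the 95% level in 8 of 80 groups tested over the 8 probe sets, where chance gives about 5%. The library labelled C57 noninfarct day 5 replicate 3, which went against its strain label, accounts for 3 of these. It was highest for Mmp9 on the first probe set (5.95, others 3.64 to 3.99), for Mmp9 on the second probe set (4.55, others 1.52 to 1.59) and for Mmp8 (3.74, others 2.18 to 2.27). Mmp8 was also high in C57 infarct day 5 replicate 2 (3.65, others 2.24 to 2.44). Il1r2 was high in MRL noninfarct day 1 replicate 3 (4.80, others 4.12 to 4.23) and low in MRL noninfarct day 5 replicate 4 (3.70, others 4.06 to 4.10). The remaining pair lay within the low range of healthy hearts: Lcn2 in MRL infarct day 0 replicate 3 (3.02, others 2.77) and Mmp9 on the second probe set in MRL infarct day 0 replicate 1 (1.56, others 1.58). The part of any cause in these values was not tested.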

How the results depend on the processing

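No member's difference changed sign past a threshold under any alternative. Results of the tested members, and of the second Mmp9 probe set where tested, were counted as unchanged if they stayed called or stayed not called. That held for 157 of 157 with eBayes trend and robust, and for 156 of 157 with quantile normalization and with centring. It held for 152 of 157 with no filter and 146 of 157 with an offset of 32. Results called in neither setting are included, so these are not shares of the calls. No filter lost 5 calls and the offset lost 11. With the offset, the number of members called fell to 0 for C57 infarct day 5 minus day 0 (3 without it), to 1 for MRL infarct day 5 minus day 0 (3), and to 0 for day 5 minus day 0 in noninfarct tissue of both strains (1 each) and for the C57 regions at day 5 (1). With no filter it was 0 for the strains in day 1 noninfarct tissue (1) and 0 for the C57 regions at day 5 (1). With all 46 arrays in one fit it was 1 for the strains in day 5 infarcts (0; Mmp9, 2.13, limma adjusted p = 0.0059) and 1 for the strain interaction in day 1 infarcts (0; Il1r2, -2.02, adjusted p = 0.038). Without both libraries that stood apart it was 1 for the strains in day 5 infarcts, 1 for the interaction in day 1 infarcts, 1 for the interaction in day 5 infarcts and 2 for the MRL regions at day 5 (1 with them). The mean of both Mmp9 probe sets gave 1 for the strains in day 5 infarcts (2.50, limma adjusted p = 0.035). The replicate block gave 2 for the MRL regions at day 5 (S100a8, 1.52, limma adjusted p = 0.026) and changed no other member's call. The labels do not say whether same-numbered infarct and noninfarct arrays came from one heart.

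Leaving out 1 array at a time, the members called ran from 1 to 2 for the strains in day 1 infarcts, 0 to 1 in day 5 infarcts and in day 1 noninfarct tissue, 0 to 1 for the interaction in infarcts at days 1 and 5, 0 to 2 for the C57 regions at day 5 and 0 to 1 for the MRL regions at day 5. Of 1341 such results 1292 stayed called or stayed not called, 38 lost a call and 11 gained one. Il1r2 in C57 noninfarct tissue (day 5 minus day 1) was called with quantile normalization (-0.48), centring (-0.47), and without day 5 replicate 1 (-0.50) or day 1 replicate 3 (-0.55). The cause of these changes was not tested. Over all probe sets, the 1121 called for the C57 regions at day 5 became 248 in arrays of the strain alone, 598 with no filter, 2563 with the block and 4258 without both libraries. The 1995 of C57 infarcts at day 1 became 3154 with all arrays in one fit, the 4394 of C57 infarcts (day 5 minus day 1) 8146 with no filter, the 2602 of C57 noninfarct tissue (day 5 minus day 0) 1424 with all arrays and 1242 without both libraries, and the 88 between strains in day 5 infarcts 169 and 310. All 7 members lie below their array's median in healthy hearts, and signal over background limits folds from that level.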
